A study of Homo sapiens with 4 samples.

Results

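The genes described here write, maintain and remove methylation of cytosine in DNA. They are the methyltransferases DNMT1, DNMT3A and DNMT3B, the catalytically inactive cofactor DNMT3L, the maintenance factor UHRF1, the dioxygenases TET1, TET2 and TET3, and the glycosylase TDG. All 9 were found by symbol, each as a single row, among the 62696 genes of the deposited count tables. The set was selected on measured values: its members were chosen by their function after DNMT3B had been seen to be over 2-fold lower in each library labelled knockdown. The contrast of those libraries with the control is therefore given as a description for every one of the 9 genes, with no test. The RNA came from NT2 cells (NTERA-2), a human embryonal carcinoma line grown in medium with 10% serum. The control group was a single library of cells labelled wild type and carrying an empty vector, called the vector control below. The other group was 3 libraries, numbered as replicates 1 to 3, of cells labelled HYDIN2 knockdown. The headers of the deposited counts instead name a LacZ control and GKAP_KIF27 sets. Groups here follow the titles, and which target and control apply could not be settled. The labels do not say by which agent the knockdown was made, how long it lasted, or whether the 3 replicates were separate cultures, constructs or clones, so the spread between them may be technical.

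DNA methylation in mammals sits mostly on cytosines followed by guanine (CpG). DNMT3A and DNMT3B place it on unmethylated DNA, and DNMT3L binds them and raises their activity in germ cells and early embryos. After replication UHRF1 recognises CpGs that are methylated on the parental strand alone and recruits DNMT1, which copies the mark. TET enzymes oxidise methylcytosine, and TDG cuts out the more oxidised bases so that repair can restore plain cytosine. DNMT3B is abundant in pluripotent and embryonal carcinoma cells and is known to decline when such cells differentiate.

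The promoter sequences of DNMT3B, the gene that defined the set, and of the 3 TET genes are printed here because CpG is the substrate of these enzymes. They are the 250 bases before a transcript start in RefSeq on GRCh38.p14, written 5′ to 3′ on the strand of the gene, with each CpG in capitals. RefSeq windows were matched for 8 of the 9 genes, and where a gene had several, the start nearest to the 5′ end of the gene in GENCODE 29 was taken. Methylation itself was not measured in these libraries.
DNMT3B, chr20:32779602-32779851, plus strand: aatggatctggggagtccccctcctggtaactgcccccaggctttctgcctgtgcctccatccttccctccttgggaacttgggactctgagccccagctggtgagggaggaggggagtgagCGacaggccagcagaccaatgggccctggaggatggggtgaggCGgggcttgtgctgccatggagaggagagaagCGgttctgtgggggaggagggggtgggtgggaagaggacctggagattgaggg
TET1, chr10:68560087-68560336, plus strand: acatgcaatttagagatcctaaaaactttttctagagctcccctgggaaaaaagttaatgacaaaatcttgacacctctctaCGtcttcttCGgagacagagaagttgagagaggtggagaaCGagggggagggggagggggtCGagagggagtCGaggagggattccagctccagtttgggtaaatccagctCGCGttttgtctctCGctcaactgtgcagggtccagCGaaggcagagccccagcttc
TET2, chr4:105145625-105145874, plus strand: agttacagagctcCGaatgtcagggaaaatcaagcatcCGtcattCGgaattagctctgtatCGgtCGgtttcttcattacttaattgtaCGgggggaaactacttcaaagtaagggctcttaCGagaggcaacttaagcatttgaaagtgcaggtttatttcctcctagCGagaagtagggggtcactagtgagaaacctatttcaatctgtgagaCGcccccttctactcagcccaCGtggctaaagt
TET3, chr2:73984660-73984909, plus strand: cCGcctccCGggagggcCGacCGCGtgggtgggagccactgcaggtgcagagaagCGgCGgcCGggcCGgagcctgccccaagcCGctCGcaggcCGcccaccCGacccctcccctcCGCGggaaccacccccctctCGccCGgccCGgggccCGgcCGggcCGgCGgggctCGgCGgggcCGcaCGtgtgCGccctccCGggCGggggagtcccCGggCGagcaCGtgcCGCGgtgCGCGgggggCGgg
The DNMT3B window lies before an internal start, 17467 bases downstream of the 5′ end of the gene in GENCODE 29, where the annotation has an intron and no exon. It held 3 CpGs, and 22.9% of all windows held fewer. The TET1 window held 9 and the TET2 window 10, close to the median of 11 over all 35116 promoter windows of this length. The TET3 window held 37, more than in 96.0% of all windows. The letters GGGCGG, searched on both strands, occurred 3 times in the TET3 window and in none of the windows of DNMT3B, TET1 and TET2; 42.6% of all windows held them. The count depends on the start: further RefSeq starts had 34 CpGs for TET2, 27 for TET3, and 4 and 11 for TET1.

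Library totals ran from 25181737 counts in the vector control to 62904698 in labelled replicate 1. HYDIN2, the pseudogene that the labels name as target and a near-identical partial copy of HYDIN, had 12 counts in the vector control. Labelled replicates 1, 2 and 3 had 150, 112 and 11, and reads that fit both copies make these counts uncertain. After scaling, the ratios to the vector control were 4.82 (2.11 to 13.5), 3.75 (1.62 to 10.7) and 0.704 (0.180 to 2.70). HYDIN2 was thus higher in replicates 1 and 2 and not detectably different in replicate 3, which goes against the label. The headers of the counts do not name HYDIN2 either. Every direction given here is that of libraries labelled knockdown. Levels are in CPM, which divides counts by the TMM-scaled library total so that libraries of unlike depth can be compared. Intervals are 95% intervals of counting error only, computed on counts divided by 2 because most counts are even, the pattern that counting each mate separately would leave. The call used below asks for a log2 CPM at least 1 above the vector control, or at least 1 below it, in all 3 labelled libraries. The spread of the control group itself is unknown, since it was sequenced once. Labelled replicates 1 and 2 were close to each other, with 0.302% of 15880 genes at least 2-fold apart, while replicate 3 stood 2-fold from them in 21.6% and 22.9% of genes. edgeR's quasi-likelihood test with Benjamini-Hochberg adjustment called 0 of 26029 genes between the groups, with 3023 at an unadjusted p under 0.05, and the Wald test of DESeq2 called 388 of 15431.

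Of the 9 genes, 8 reached the minimum mean level of 1 CPM and DNMT3L did not. DNMT3B was called lower, TET2 and TET3 were called higher, and the other 5 measured genes were not called. Over all 15880 genes the same rule called 432 lower (2.72%) and 581 higher (3.66%), together 6.38%. With total-count scaling the split was 312 lower and 734 higher. DNMT3B was in the choice of the set, so its call adds nothing to that choice. The calls closest to the limit were those of TET2 and DNMT3B, whose smallest log2 differences were 1.18 and -1.18, and TET1 was the nearest gene outside it with a smallest log2 difference of 0.65. The median over the 8 measured genes was 0.05, against -0.02 over all genes. Differences of any size pointed the same way in all 3 labelled knockdown libraries for 6 of the 8 genes, higher for DNMT3A, TET1, TET2 and TET3 and lower for DNMT3B and TDG. Among all genes measured, 30.1% were higher and 34.2% lower in all 3 by this looser reading.

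**Figure D1:**
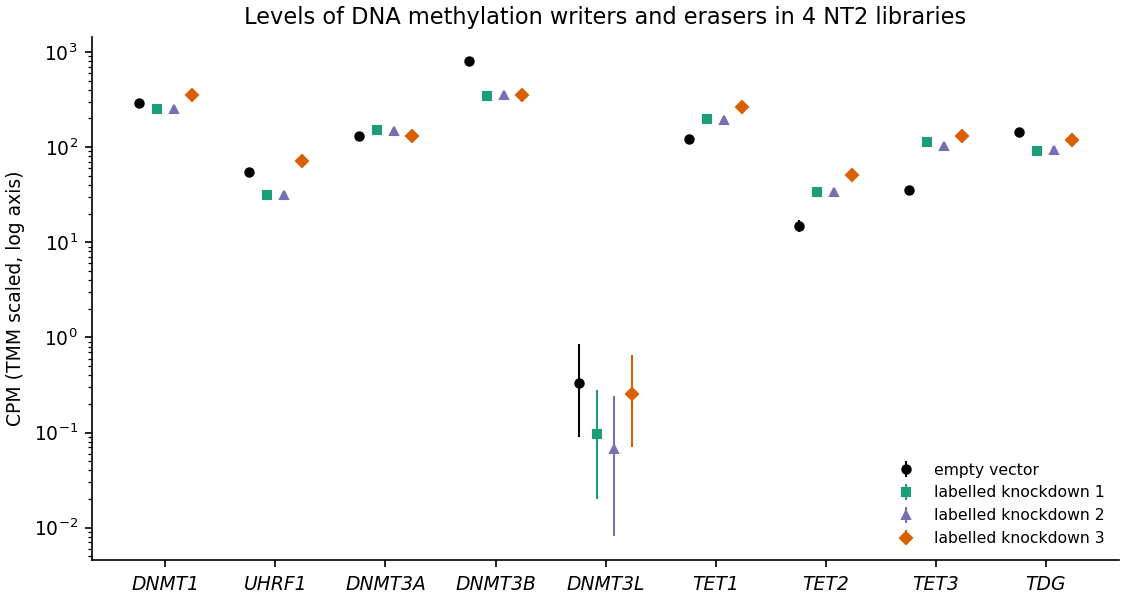
Level of each gene in the 4 libraries, in TMM-scaled CPM on a log axis, with 95% Poisson intervals of counting error that are smaller than most symbols. DNMT3B lies at 795 CPM in the vector control and near 350 CPM in the other 3, and DNMT3L lies below 1 CPM in all 4.

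DNMT3B (ENSG00000088305.19), one of the de novo methyltransferases, occupies positions 32762385 to 32809356 of chromosome 20, plus strand, in GRCh38, the build of all gene coordinates given here. It had 19076 counts in the vector control, a level of 795 CPM, which made it the gene of rank 130 in that library. The libraries labelled knockdown replicates 1, 2 and 3 had 340, 350 and 349 CPM. These 3 values were close together, and the vector control lay far above them. DNMT3B was 2.34-fold lower in replicate 1, with a ratio to the vector control of 0.428 (0.416 to 0.440). It was 2.27-fold lower in replicates 2 and 3, with ratios of 0.441 (0.429 to 0.453) and 0.440 (0.425 to 0.455). On the log2 scale the mean difference came to -1.20 ± 0.02 (SD, n = 3), the smallest spread of the 8 genes with TMM scaling. With the same scaling, replicate 3 equalled replicate 1 within counting error in this gene, at a ratio of 1.03 (0.995 to 1.06), although the libraries differed widely elsewhere. The closeness depended on scaling. The log2 differences were -1.17, -1.16 and -0.99 with total counts and -1.27, -1.24 and -1.05 with upper quartile scaling. The values of DNMT3A then lay closer together, at 0.27, 0.19 and 0.22 and at 0.17, 0.11 and 0.15. Scaling to total counts put replicate 3 at 1.98-fold lower and so ended the call, with a mean log2 difference of -1.11. Removal of length and GC trends, described further on, ended it too, at -0.96 in replicate 3. The call held under DESeq2 and upper quartile scaling and without each labelled knockdown library in turn.

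DNMT3A (ENSG00000119772.19; chromosome 2, 25227855 to 25342590, minus strand), the other de novo enzyme, did not share that difference. It had 130 CPM in the vector control and 151, 146 and 132 CPM in labelled replicates 1, 2 and 3. Replicates 1 and 2 lay slightly above the vector control, with ratios of 1.16 (1.10 to 1.23) and 1.12 (1.06 to 1.19). For replicate 3 the ratio was 1.01 and its interval, 0.947 to 1.08, included 1. DNMT3A was called in neither direction, with an average log2 difference of 0.13 ± 0.10 (SD, n = 3), and removal of length and GC trends turned it to -0.28.

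DNMT3L (ENSG00000142182.9; chromosome 21, 44246339 to 44262216, minus strand), which has no methyltransferase activity of its own, was at the limit of detection. It had 8 counts in the vector control and 6, 4 and 8 counts in labelled replicates 1, 2 and 3, at most 0.333 CPM in any library. A count of 3 corresponded to between 0.0482 and 0.125 CPM in the 4 libraries. All 3 ratios to the vector control, 0.289, 0.201 and 0.768, had intervals that included 1: at this depth a difference could not be detected.

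The maintenance pair was described next. DNMT1 (ENSG00000130816.17; chromosome 19, 10133345 to 10231286, minus strand), which copies methylation onto the new strand, had 288 CPM in the vector control. Labelled replicates 1, 2 and 3 had 253, 250 and 357 CPM. The vector control thus lay between replicates 1 and 2, which were lower at ratios of 0.878 (0.844 to 0.915) and 0.867 (0.833 to 0.903), and replicate 3, which was higher at 1.24 (1.19 to 1.29). On average the log2 difference, -0.03 ± 0.29 (SD, n = 3), did not exceed the spread, and it changed sign with total-count scaling, to 0.06, and without replicate 1 or replicate 2, to 0.05 and 0.06.

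UHRF1 (ENSG00000276043.5; chromosome 19, 4903080 to 4962154, plus strand), which brings DNMT1 to newly replicated DNA, showed the same order of libraries with larger steps. It had 54.4 CPM in the vector control and 31.3, 31.1 and 71.9 CPM in labelled replicates 1, 2 and 3. Replicates 1 and 2 were lower than the vector control, at ratios of 0.576 (0.521 to 0.637) and 0.572 (0.517 to 0.634). Replicate 3 was higher, at 1.32 (1.20 to 1.46), and stood 2.29 times as high as replicate 1 (2.10 to 2.50). Its log2 difference averaged -0.40 ± 0.69 (SD, n = 3), smaller than its spread, and it was -0.80 without replicate 3. Per kb of exonic sequence, UHRF1 stood at 0.359 of the DNMT1 level in the vector control, at 0.236 and 0.237 in replicates 1 and 2 and at 0.384 in replicate 3.

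**Figure D2:**
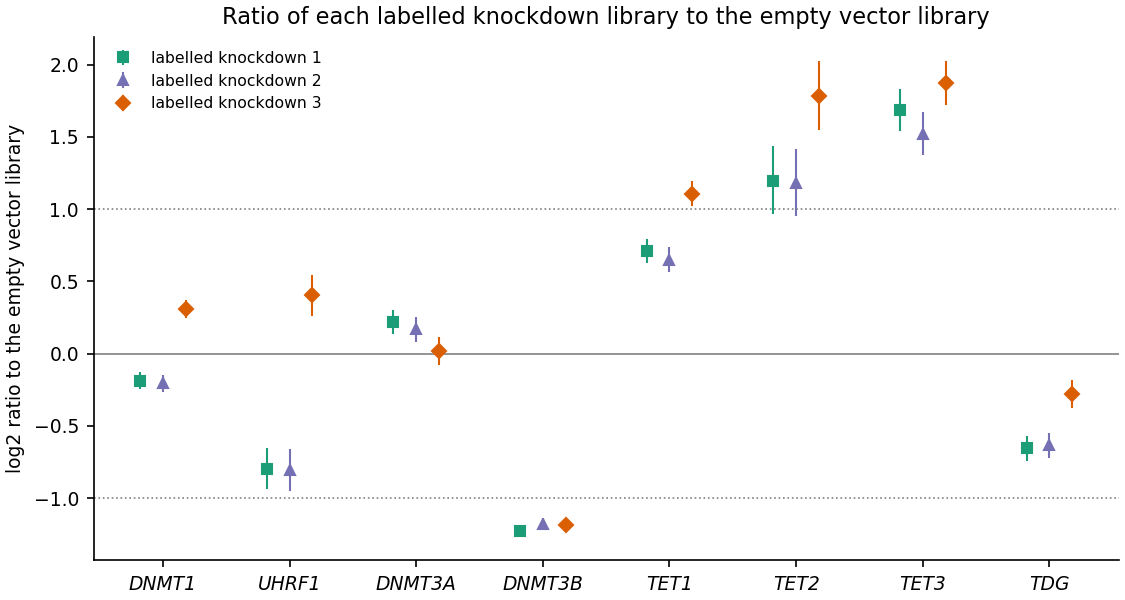
Log2 ratio of each labelled knockdown library to the vector control for the 8 genes above 1 CPM, with 95% exact binomial intervals of counting error; dotted lines mark 2-fold. DNMT3B lies below the lower line and TET2 and TET3 above the upper line in all 3 libraries, while DNMT1 and UHRF1 have values on both sides of 0.

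All 3 TET genes were higher in each labelled knockdown library. TET3 (ENSG00000187605.16; chromosome 2, 73986404 to 74108176, plus strand), best known for oxidising the paternal genome in the zygote, had 35.3 CPM in the vector control. Labelled replicates 1, 2 and 3 had 114, 101 and 129 CPM, all well above it. The ratios were 3.21 (2.91 to 3.56), 2.87 (2.59 to 3.18) and 3.67 (3.30 to 4.08), and the mean log2 difference was 1.69 ± 0.18 (SD, n = 3). Of the 15880 genes measured, 290 had a larger mean log2 difference.

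TET2 (ENSG00000168769.14; chromosome 4, 105145875 to 105279816, plus strand), a frequent target of mutation in blood cancers, was the least abundant of the 3. It had 14.8 CPM in the vector control and 34.0, 33.6 and 51.0 CPM in labelled replicates 1, 2 and 3. Replicate 3 was the highest and the vector control the lowest. The ratios were 2.29 (1.95 to 2.70), 2.27 (1.93 to 2.67) and 3.44 (2.92 to 4.07), so the lower bounds for replicates 1 and 2 reached just below 2. The mean log2 difference of 1.38 ± 0.34 (SD, n = 3) became 0.73 once length and GC trends were removed, which ended the call.

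TET1 (ENSG00000138336.9; chromosome 10, 68560656 to 68694482, plus strand), the main TET enzyme of pluripotent cells, had 122 CPM in the vector control. Labelled replicates 1, 2 and 3 had 199, 191 and 262 CPM. The ratios of replicates 1 and 2, 1.64 (1.55 to 1.74) and 1.57 (1.48 to 1.66), were under 2-fold, and that of replicate 3, 2.16 (2.03 to 2.29), was above it. TET1 was therefore not called, with a mean log2 difference of 0.82 ± 0.25 (SD, n = 3). At 1.5-fold in each library, a rule that 10.0% of all genes met as higher, all 3 TET genes passed; DNMT3B was the only one of the 9 lower by that rule, which 9.62% of all genes met as lower.

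TDG (ENSG00000139372.15; chromosome 12, 103965804 to 103988874, plus strand), which excises the bases that TET enzymes leave, was lower where the TET genes were higher. It had 144 CPM in the vector control and 91.4, 92.7 and 119 CPM in labelled replicates 1, 2 and 3. All 3 labelled knockdown libraries lay below the vector control, at ratios of 0.635 (0.598 to 0.674), 0.644 (0.606 to 0.684) and 0.824 (0.771 to 0.880). TDG was not called, at a mean log2 difference of -0.52 ± 0.21 (SD, n = 3). Its annotated pseudogene TDGP1 had at most 16 counts in a library, against 3455 to 5690 for TDG.

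Ratios of genes within a library do not depend on how libraries are scaled, so the makeup of each family was compared per kb of exonic length. Their changes between libraries still carry the length trend described further on, and no share was computed with that trend removed. This trend came to a mean log2 difference of 0.45 at the length of DNMT3A and -0.08 at that of DNMT3B. Of the summed level of DNMT1, DNMT3A and DNMT3B, DNMT3B made up 81.0% in the vector control. It made up 65.7%, 66.8% and 61.5% in labelled replicates 1, 2 and 3, a mean of 64.6% ± 2.81 (SD, n = 3). DNMT1 took most of the remainder, 13.9% in the vector control and 23.1%, 22.5% and 29.6% in the replicates. Between the de novo enzymes alone, DNMT3B held 94.1% in the vector control (93.8% to 94.4%) and 85.4%, 86.2% and 87.3% in the replicates. DNMT3B stood 15.9 times as high as DNMT3A in the vector control and 5.85, 6.24 and 6.90 times in the replicates, so it remained the more abundant enzyme in each library.

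Among the TET genes, TET1 held 77.6% of the summed level per kb in the vector control (75.9% to 79.3%) and 65.5%, 66.6% and 67.4% in labelled replicates 1, 2 and 3. TET3 moved the other way, from 17.0% (15.6% to 18.6%) to 28.2%, 26.7% and 25.2%. TET2 held 5.33%, then 6.29%, 6.61% and 7.39%. The summed TET level per kb was 0.0797 of the summed level of the 3 methyltransferases in the vector control, and 0.293, 0.272 and 0.341 of it in the replicates. The lowest of the labelled knockdown libraries thus lay over 3 times as high as the vector control in this ratio. These values follow from the same counts as the differences above and are no further evidence for them. The length trend was not removed from them, and it runs higher at the lengths of the 3 TET genes than at that of DNMT3B.

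**Figure D3:**
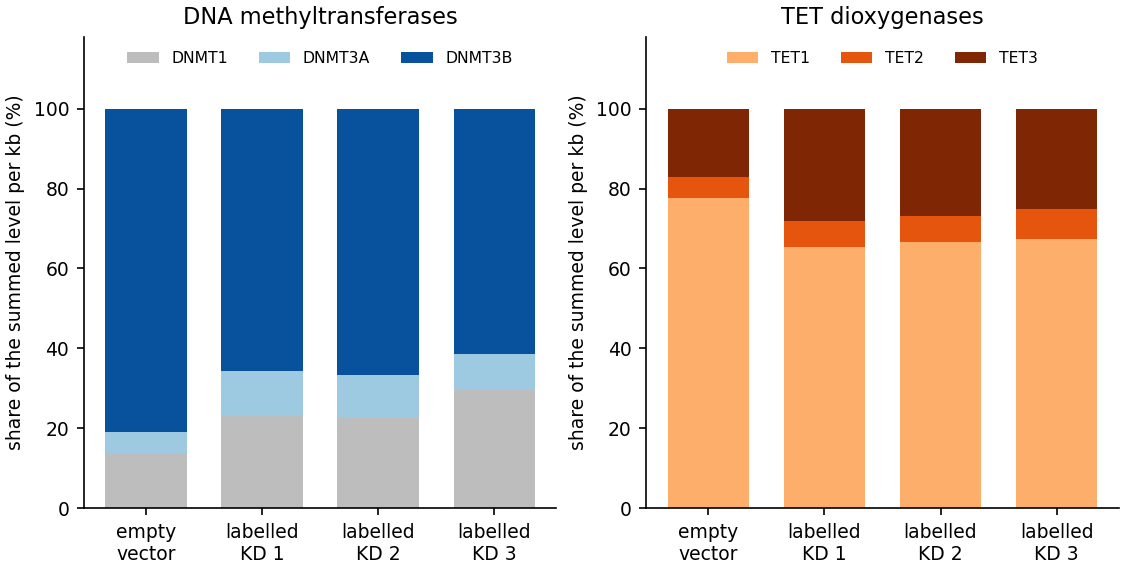
Share of each gene in the summed level per kb of its family, in percent, for the methyltransferases at the left and the TET genes at the right, in each of the 4 libraries. The DNMT3B share is 81.0% in the vector control and between 61.5% and 66.8% in the others, and the TET3 share is 17.0% against 25.2% to 28.2%.

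The order of the 9 genes by level per kb was the same at both ends in the 4 libraries. DNMT3B was highest and DNMT1 second in each of them, TET2 was eighth and DNMT3L lowest. In the vector control DNMT3B stood at 172 CPM per kb, and DNMT1 and TDG were level at 29.4. TET1 followed at 13.1, DNMT3A and UHRF1 at 10.8 and 10.6, TET3 at 2.88 and TET2 at 0.900 CPM per kb. In the labelled knockdown libraries TET1 stood above TDG, by 2.83, 1.67 and 4.06 CPM per kb within replicates 1, 2 and 3. This difference averaged 2.85 ± 1.20 (SD, n = 3), and in the vector control it was -16.3 CPM per kb. The order rests on exonic length, which was 4903 nt for TDG and 9796 nt for DNMT1. Their longest transcripts had 3251 and 5408 nt, while TET1 had 9288 nt by both measures. Scaling by longest transcript would raise TDG and DNMT1 against TET1, and the order was not computed that way. UHRF1 lay below DNMT3A and TET3 in replicates 1 and 2 and above both in replicate 3, so the order of these 3 genes was not the same in all libraries.

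The libraries also differed by gene length, and the TET genes are long. Over 15485 genes, which are not independent replicates, Spearman's rho between exonic length and the log2 difference was 0.307, 0.269 and 0.407 for labelled replicates 1, 2 and 3. Exonic lengths were 9288 nt for TET1, 16474 nt for TET2 and 12271 nt for TET3, against 4630 nt for DNMT3B; 97.8% of the measured genes were shorter than TET2 and 47.6% shorter than DNMT3B. Of 3224 measured genes of at least 8000 nt, a limit set after the values were seen, 8.84% were called higher and 0.186% lower. The smooth trend on length alone came to a log2 difference of 0.28, 0.60 and 0.46 at the lengths of TET1, TET2 and TET3, and of -0.08 at that of DNMT3B.

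With the trends on length and GC content removed, TET3 alone of the 9 genes stayed past 2-fold in each library, with log2 differences of 1.27, 1.15 and 1.36 in labelled replicates 1, 2 and 3. TET2 fell short of the limit in replicates 1 and 2, at 0.58, 0.60 and 1.03, a mean of 0.73 ± 0.26 (SD, n = 3). TET1 had 0.34, 0.30 and 0.83, a mean of 0.49 ± 0.30 (SD, n = 3). DNMT3B had -1.15, -1.11 and -0.96, so that replicate 3 lay just inside 2-fold, with a mean of -1.07 ± 0.10 (SD, n = 3). The directions of DNMT3B, TDG and the 3 TET genes were thus the same with and without the trends in the mean, while that of DNMT3A was not. How much of each difference is due to length was not tested.

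**Figure D4:**
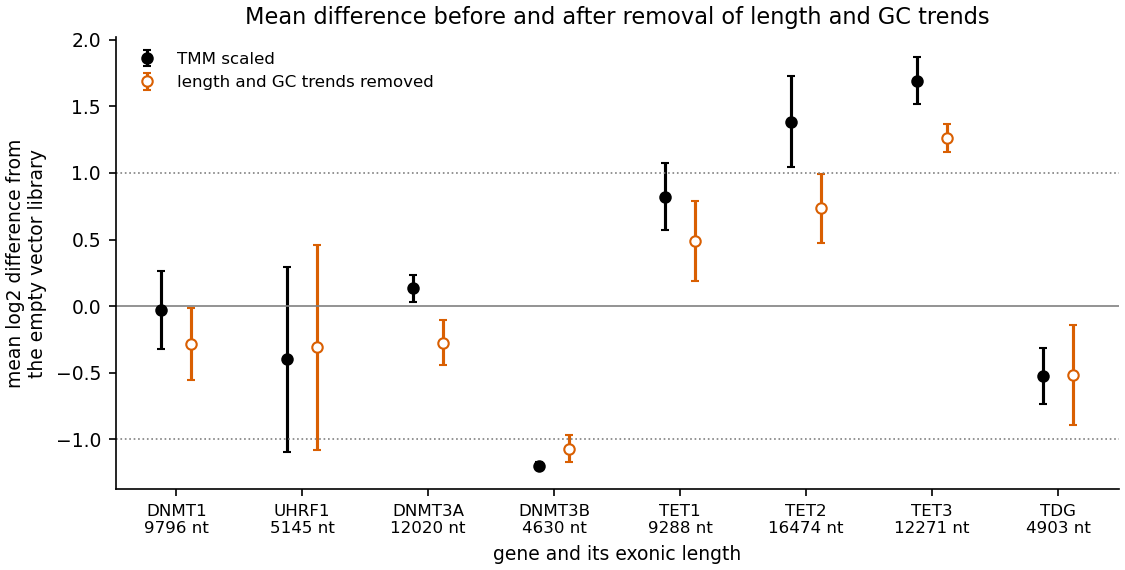
Mean log2 difference of the 3 labelled knockdown libraries from the vector control, with SD, before (filled) and after (open) removal of smooth trends on exonic length and GC content; dotted lines mark 2-fold. TET2 moves from 1.38 to 0.73 and TET3 from 1.69 to 1.26, while DNMT3B moves from -1.20 to -1.07.

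Other genes of methylation biology were then examined in 9 lists, by the same rule and beside a median log2 difference of -0.02 over all genes. Of 12 partners of maintenance methylation, 1 was called lower and 0 higher, against 2.72% and 3.66% of all genes, and the median was -0.43. The gene called was DPPA3, which can displace UHRF1 from chromatin, with 10.5 CPM in the vector control and 0.964, 0.838 and 0.320 CPM in labelled replicates 1, 2 and 3. PCNA, the replication clamp that DNMT1 binds, had 330 CPM against 105, 110 and 167 CPM and missed the limit only in replicate 3, at a log2 difference of -0.98. CDCA7, which activates the remodeller HELLS, had 254 CPM against 101, 109 and 147 CPM. HELLS itself had 297 CPM against 291, 289 and 407 CPM. USP7, a deubiquitinase that binds DNMT1 and UHRF1, went the other way with 169 CPM against 283, 278 and 213 CPM.

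UHRF1, DNMT1 and PCNA are known to be higher in cells that are replicating, so genes of S phase were listed as well. Of 16, 1 was called lower, against 2.72% of all genes, and 15 were lower to some extent in all 3 labelled knockdown libraries, against 34.2% of all genes. The median log2 difference was -0.54, and by library it was -0.68, -0.59 and -0.52. The gene called was CCNE1, the cyclin of entry into S phase, with 46.7 CPM in the vector control and 14.4, 15.9 and 21.9 CPM in labelled replicates 1, 2 and 3. The exception was MKI67, a proliferation antigen, with 254 CPM against 372, 342 and 901 CPM. MCM4, of the replicative helicase, had 713 CPM against 417, 432 and 679 CPM. The summed level of the 16 genes was 3099 CPM in the vector control and 2057, 2123 and 3058 CPM in the replicates, where MKI67 carried the sum of replicate 3. Without MKI67, left out after its values were seen, the sums were 2846 CPM against 1685, 1780 and 2157 CPM. The other 15 genes were thus lower in replicate 3 too, unlike UHRF1 and DNMT1, which were higher there. The part of S phase in the levels of UHRF1 and DNMT1 was not tested.

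Of 12 measured de novo partners and chromatin cues, 1 was called higher, against 3.66% of all genes, and 0 lower, with a median of 0.32 that became 0.00 once length and GC trends were removed. The gene called was CBX5, the heterochromatin protein HP1 alpha, with 705 CPM against 1485, 1498 and 1477 CPM. Among 10 methyl-CpG readers and members of their protein families, 2 were called higher, against 3.66% of all genes, and 0 lower. Their median of 0.61 likewise shrank to 0.10 without the trends. ZBTB38, a zinc finger protein that binds methylated DNA, had 37.2 CPM against 131, 114 and 78.3 CPM. MBD6, a protein of the MBD family, had 36.6 CPM against 83.6, 80.7 and 78.5 CPM. TRIM28, a corepressor that recruits de novo methylation through zinc finger proteins, had 312 CPM against 214, 224 and 228 CPM. Of 8 proteins with a CXXC domain, which binds unmethylated CpG, 0 were called; KMT2A, a histone methyltransferase, had 109 CPM against 219, 212 and 473 CPM and missed the limit only in replicate 2, at a log2 difference of 0.96.

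Downstream of TET and TDG, 0 of 15 measured genes of base excision repair and TET partners were called, and 8 were lower to some extent in all 3 libraries, against 34.2% of all genes. The median of -0.41 became -0.23 once length and GC trends were removed. PARP1, which responds to DNA strand breaks, had 786 CPM against 565, 591 and 614 CPM. UNG, a uracil glycosylase, had 173 CPM against 85.0, 93.8 and 83.2 CPM. OGT, a glycosyltransferase that binds TET proteins, had 107 CPM against 99.2, 105 and 298 CPM, high in replicate 3 alone. APEX1, the endonuclease that follows the glycosylases, had 156 CPM against 97.0, 106 and 113 CPM.

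The enzymes that supply the methyl donor and the TET cosubstrate came last. In the S-adenosylmethionine and folate cycle, 0 of 13 genes were called. The median of -0.19 was 0.024 without replicate 3 and -0.39 without replicate 1. By library the medians were -0.03, -0.10 and -0.38 in replicates 1, 2 and 3, farthest from 0 in replicate 3. SHMT2, the mitochondrial serine hydroxymethyltransferase, had 394 CPM against 461, 513 and 175 CPM, and AHCYL1, a relative of AHCY, had 377 CPM against 369, 399 and 288 CPM. MAT2A, which makes S-adenosylmethionine, had 246 CPM in the vector control and 47.1, 47.3 and 341 CPM in labelled replicates 1, 2 and 3. Replicates 1 and 2 were thus far below the vector control, at a log2 difference of -2.38 in each, and replicate 3 was above it, at 0.47. AHCY, which clears the byproduct of methylation, had 330 CPM against 200.1, 214 and 137 CPM.

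For the supply of 2-oxoglutarate and the enzymes whose metabolites compete with it, 1 of 13 genes was called lower, against 2.72% of all genes, 0 were called higher and the median was -0.39. IDH1, which makes 2-oxoglutarate in the cytosol, had 478 CPM in the vector control and 223, 236 and 177 CPM in labelled replicates 1, 2 and 3. SDHC, a subunit of succinate dehydrogenase, had 222 CPM against 151, 162 and 140.1 CPM. IDH2, the mitochondrial counterpart of IDH1, had 204 CPM against 120.4, 120.3 and 78.4 CPM, past 2-fold in replicate 3 alone.

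**Figure D5:**
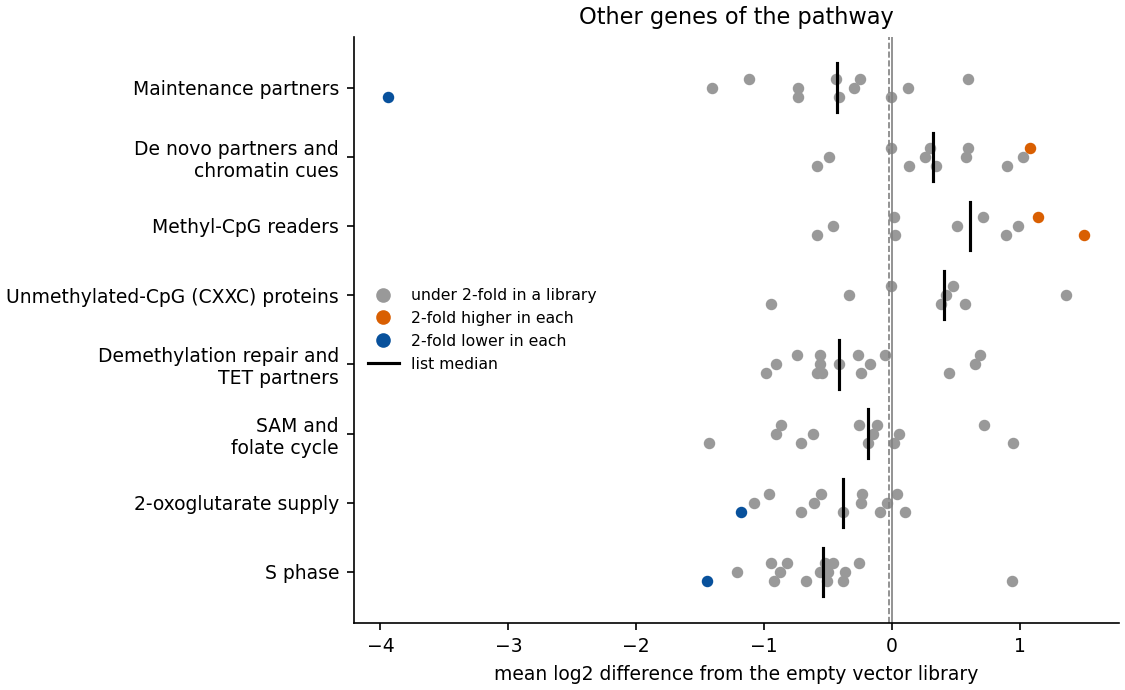
Mean log2 difference of each measured gene from the vector control, by list, with black bars at list medians, a solid line at 0 and a dashed line at the median of all genes (-0.02). The S phase list has a median of -0.54 with MKI67 at 0.94 as its only value above 0, and DPPA3 lies farthest to the left.

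Germline genes that are known to be silenced by promoter methylation were listed because their RNA can appear where methylation is lost. Only 3 of 20 reached 1 CPM, and 0 of these were called. DAZL, a germ cell RNA-binding protein, had 0.750 CPM in the vector control and 3.47, 3.35 and 0.608 CPM in labelled replicates 1, 2 and 3. MAEL, of the piRNA pathway, had 1.92 CPM against 2.36, 2.66 and 1.86 CPM, and SYCP3, of meiotic chromosomes, had 2.37 CPM against 0.980, 0.988 and 3.07 CPM. The summed level of all 20 genes was 8.50 CPM in the vector control and 10.1, 10.6 and 7.78 CPM in the replicates.

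The identity of the cells was checked with markers, since DNMT3B itself marks the undifferentiated state. Of 12 embryonal carcinoma markers 11 were above 1 CPM and 0 were called, against 3.66% of all genes called higher and 2.72% lower. To some extent, 2 were higher and 5 lower in all 3 labelled replicates, against 30.1% and 34.2% of all genes. LIN28A had 2844 CPM against 3514, 3620 and 1912 CPM, PODXL 1838 CPM against 2566, 2462 and 3865 CPM, DPPA4 1398 CPM against 1146, 1239 and 604 CPM, and NANOG 502 CPM against 820.0, 817 and 323 CPM. The other markers of this list were named after their values were seen. L1TD1 had 472 CPM against 241, 239 and 227 CPM, log2 differences of -0.97, -0.98 and -1.06, and so missed the limit in replicates 1 and 2. POU5F1 had 42.8 CPM against 35.9, 38.5 and 19.4 CPM. TDGF1 and TERF1 were also lower in all 3, at log2 differences of -0.56, -0.34 and -1.61, and of -0.73, -0.64 and -0.47. SALL4 was higher in all 3, at 0.35, 0.27 and 0.37. SOX2 (0.10, 0.10 and -0.11) and LIN28B (0.84, 0.85 and -0.03) were higher in replicates 1 and 2 alone. ZFP42 was near 0 in all 4 libraries. The summed level of these markers was 8371 CPM in the vector control and 9613, 9741 and 7939 CPM in labelled replicates 1, 2 and 3. Markers of neural progenitors and neurons summed to 197 CPM against 388, 366 and 326 CPM, of which NES alone had 167 CPM against 292, 274 and 270 CPM. Of the 9 that were measured, 5 were higher to some extent in all 3 replicates, against 30.1% of all genes. DCX, SYP and ELAVL3 were higher in replicates 1 and 2 but lower in replicate 3, at log2 differences of -0.02, -0.41 and -0.77 there. ELAVL4, named after its values were seen, had the same pattern with a log2 difference of -2.70 in replicate 3. That value rests on 16 counts in the vector control and 2 in replicate 3. PAX6 and MAP2, 2 of the 9, were called higher, against 3.66% of all genes. PAX6 had 0 counts in the vector control and 15.4, 13.1 and 2.94 CPM in replicates 1, 2 and 3. It passed the minimum of 1 CPM only through those libraries. MAP2 had 9.17 CPM against 24.0, 22.8 and 34.5 CPM. Trophoblast markers summed to 30.8 CPM against 65.8, 61.9 and 149 CPM, while CGA was at 0 in all 3 replicates. Of the 4 measured, 1 was called higher, TFAP2A, against 3.66% of all genes, and 3 were higher to some extent in all 3 replicates, against 30.1%. TFAP2A had 4.54 CPM against 15.1, 13.6 and 70.3 CPM, and GATA3 had 18.5 CPM against 38.2, 35.3 and 71.2 CPM. KRT7 had 7.17 CPM against 11.4, 12.3 and 4.45 CPM, lower in replicate 3. Endoderm markers summed to 7.92 CPM against 14.1, 12.5 and 26.1 CPM with 0 called, and FOXA2 was at 0 except in replicate 3. Fibroblast markers summed to 504 CPM against 645, 634 and 420 CPM, of which THY1 had 362 CPM against 382, 394 and 210 CPM. PDGFRB, 1 of 6 measured, was called higher, against 3.66% of all genes, and DCN was at or near 0 in all 4. COL1A1 and COL1A2 were higher to some extent in all 3 replicates, COL1A2 by a log2 difference of only 0.03 in replicate 3. COL3A1, named after its values were seen, had 4.04 CPM against 0.739, 0.570 and 6.21 CPM. It was thus lower in replicates 1 and 2, at log2 differences of -2.38 and -2.73, and higher in replicate 3. THY1 and LUM were higher in replicates 1 and 2 but lower in replicate 3, at log2 differences of -0.79 and -0.82 there. Blood markers summed to at most 0.417 CPM. The part of these markers' cells in the levels of the 9 genes was not tested, and in bulk RNA fewer cells of a type and less RNA per cell cannot be told apart.

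The genes with the pattern most like DNMT3B were sought among 11071 other protein-coding genes with a mean of at least 5 CPM, by the Euclidean distance between the 3 log2 differences from the vector control. The 5 nearest were BLOC1S4, MRPS15, SYT13, PTRH2 and NOP16, at distances from 0.0655 to 0.0960. BLOC1S4, a subunit of a complex of lysosome-related organelles, had 31.9 CPM in the vector control and 13.5, 14.2 and 13.4 CPM in labelled replicates 1, 2 and 3. MRPS15, a mitochondrial ribosomal protein, had 143 CPM against 61.8, 64.2 and 60.2 CPM. Over 4 libraries that share 1 vector control value, such likeness is a description only.

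Annotated genes that overlap the 9 were checked, since the strand setting of the counting is not given in the sources used here and reads of overlapping genes may then be split or shared. S1PR2, which overlaps DNMT1 on the same strand, had 624 counts in the vector control and 1346, 1315 and 446 in labelled replicates 1, 2 and 3, against 6918 or more for DNMT1. TET2-AS1, on the strand opposite TET2, had at most 9 counts in a library, and DNMT3L-AS1 had 0 in all 4. The pseudogenes COX20P1 and RPS3AP37 within TET1 had at most 16. The microRNA genes MIR4322, MIR4747 and MIR1301, which overlap DNMT1, UHRF1 and DNMT3A, had at most 2, and ENSG00000279181, opposite TET3, had at most 6.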

How the data were processed

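RNA depleted of ribosomal RNA was made into stranded libraries, per the labels' protocols. For each library the authors deposited raw counts per gene. The submitters' processing notes name STAR 2.7.11b, featureCounts 2.0.6, DESeq2 and GRCh38; the counting settings and annotation release are not given in the sources used here. Headers of the deposited tables name a LacZ control and GKAP_KIF27 sets in place of HYDIN2; tables were assigned by the series' record and grouped by title. Counts were scaled with TMM factors (edgeR 4.0.16, R 4.3.3) from 0.953 to 1.09, computed on genes kept by filterByExpr, and log2 CPM used a prior count of 2. Genes entered at a mean of group mean CPMs of at least 1. Length and GC content came from GENCODE 29, in which 58269 of 62696 identifiers were found; trends were lowess fits with a span of 0.3, length first. Intervals were exact (SciPy 1.17.1). Tests on simulated data covered the calling rule, the removal of trends and edgeR's test. The simulated counts had the same spread in all libraries and no library apart from the others as replicate 3 is. They therefore do not show how the rule or edgeR's test behaves with such a library. Named were all 9 genes, HYDIN2, the genes that overlap the 9 and the 5 nearest to DNMT3B. From each list, every called gene was named, with up to 4 uncalled ones in descending order of mean CPM. Markers at or near 0, the remaining embryonal carcinoma markers, ELAVL4 and COL3A1 are named outside this rule, after their values were seen. The 9 genes and the lists were chosen with earlier results of these data known. Alternatives were other scalings (DESeq2 1.42.0 size factors, upper quartile, totals), prior counts of 0.5 and 5, CPM minimums of 0.1 and 5, a 1.5-fold rule, trend removal, thinning, a restriction to protein-coding genes, and fits without 1 of the labelled replicates.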

Additional observations from a re-analysis of the deposited data

How the results depend on the processing

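No paired analysis was possible because only 1 control was sequenced, and it carries no replicate number. Leaving out each labelled knockdown library in turn left DNMT3B lower and TET2 and TET3 higher, with mean log2 differences from -1.21 to -1.18 for DNMT3B, from 1.19 to 1.49 for TET2 and from 1.60 to 1.78 for TET3. Total-count scaling ended the DNMT3B call (0 genes of the 9 lower, mean log2 difference -1.11, S phase median -0.45) and split all calls into 734 higher and 312 lower, against 581 and 432. Removal of length and GC trends left 1 of the 9 genes higher (TET3) and 0 lower, with 248 genes lower over the whole table. The means were then -0.28 for DNMT3A, -1.07 for DNMT3B, 0.49 for TET1, 0.73 for TET2 and 1.26 for TET3. List medians were -0.0035 for de novo partners and 0.10 for methyl-CpG readers and members of their families. Genes called over the whole table numbered 1606 higher and 1035 lower at a minimum of 0.1 CPM, 377 and 254 at 5 CPM, and 1588 and 1527 at 1.5-fold; leaving out 1 labelled knockdown library gave 616 to 1543 higher and 485 to 845 lower, the largest counts without replicate 3. At 5 CPM the 2-oxoglutarate median was -0.56 and no germline gene was left; at 0.1 CPM the germline median was -0.051. Without single libraries, the list median ran from -0.39 to 0.024 for the folate cycle, from 0.12 to 0.53 for germline genes and from -0.63 to -0.52 for S phase; the upper bounds of the first pair and the lower bound of S phase came without replicate 3. The DNMT3B share of the de novo enzymes was 93.1% in the vector control and 84.2% in the mean of the others by longest transcript, and 85.9% and 70.8% of counts without length scaling; leaving out a library, an alternative added after seeing the data, gave 85.8% to 86.8%. The Wald test of DESeq2 called 388 genes, and edgeR's test called 17 without replicate 1, 39 without replicate 2 and 11177 without replicate 3, where the spread comes from the close pair of replicates 1 and 2 alone. Depth limits any statement on DNMT3L.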
